A study of Homo sapiens with 6 samples.

Results

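The genes described here are the ERBB receptors and the ligands that bind them, 10 of the 58735 genes in the deposited RNAseq tables. They were taken by name: the 4 receptors EGFR, ERBB2, ERBB3 and ERBB4, and the 6 ligands EGF, TGFA, AREG, EREG, NRG1 and HBEGF. They were compared between the castration-resistant prostate cancer line C4-2B and RC4-2B. The latter is a subclone selected for resistance to the taxane cabazitaxel (CBZ) by 72 h treatments, each followed by recovery, at doses that were raised in 4 months from 0.1 nM up to 20 nM. There were 3 biological replicates per line, with no drug named for the culture before RNA isolation. The sample labels give 10% fetal bovine serum for all 6 libraries, whereas the RNA-seq methods name charcoal-stripped serum beside it. RC4-2B is 1 subclone, so the error of each value is the spread between cultures of that subclone and does not cover other resistant lines.

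The ERBB receptors are cell surface tyrosine kinases that pair on ligand binding and phosphorylate each other, which recruits adaptors such as GRB2 and SHC1 and feeds the RAS-ERK and PI3K-AKT cascades. EGF, TGFA and AREG bind EGFR, HBEGF and EREG bind EGFR and ERBB4, and NRG1 binds ERBB3 and ERBB4. ERBB2 has no known ligand and acts as the preferred partner of the others, whereas ERBB3 has little kinase activity of its own and signals through its partner, mainly to PI3K. In the prostate, EGF is a secreted product of the epithelium, and ERBB2 and ERBB3 have been studied for their crosstalk with the androgen receptor.

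Among the ligands named above, EGF and TGFA were the 2 whose 3 RC4-2B libraries all lay above the 3 C4-2B libraries. The same held for 17% of all tested genes, so it does not set these ligands apart. The promoters of EGF and TGFA are shown. The sequences are the 250 bases before the annotated start in RefSeq (GRCh38.p14), read 5′ to 3′ on the strand of the gene. The EGF window is chr4:109912633-109912882 on the + strand and the TGFA window is chr2:70553827-70554076 on the - strand. Capitals mark every match on either strand to CCAAT, the core of the CCAAT box. They also mark the core of the GC box, GGGCGG, which appears as its reverse complement where it lies on the other strand. Neither window holds TATAAA on either strand, and the 3 words do not overlap in them.
EGF: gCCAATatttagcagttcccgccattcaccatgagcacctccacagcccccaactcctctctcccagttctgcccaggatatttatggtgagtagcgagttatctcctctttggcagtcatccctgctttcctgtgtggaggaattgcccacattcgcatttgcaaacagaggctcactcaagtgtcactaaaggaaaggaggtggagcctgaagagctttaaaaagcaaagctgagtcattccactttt
TGFA: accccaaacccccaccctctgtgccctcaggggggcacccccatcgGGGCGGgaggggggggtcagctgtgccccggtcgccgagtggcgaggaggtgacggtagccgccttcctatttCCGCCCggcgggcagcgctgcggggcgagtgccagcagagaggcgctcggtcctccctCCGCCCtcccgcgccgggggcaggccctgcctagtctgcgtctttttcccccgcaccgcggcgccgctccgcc
The EGF window has a GC content of 48.8% and holds 1 CCAAT, a word that 32.0% of the 35116 promoter windows of the same length contain. The TGFA window has a GC content of 75.6%, against a median of 58.0% over all windows, and holds 3 GGGCGG words, which 42.6% of all windows contain at least once. TATAAA was found in 10.7% of all windows. A second annotated start of TGFA gives a window at chr2:70553447-70553696 with a GC content of 64.0% and none of the 3 words. The TGFA windows lie inside the deposited coordinates of the gene, whose 5′ end is at 70554193. The RNAseq data do not say which start was used, and the matches are letters in a window and not measured binding sites.

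The libraries held between 15707134 and 18052517 counts on genes, and a count of 3, the detection floor used here, corresponded to 0.170 to 0.188 CPM (counts relative to the TMM-scaled library total). This limit covers counting error only. RC4-2B replicate 2 stood apart: the log2 difference between libraries had an SD of 0.57 and 0.49 across genes between it and replicates 1 and 3, against 0.20 between those 2 and at most 0.18 between C4-2B libraries, and it followed the GC content of the transcripts. Calls that turned on this library are therefore also given without it or with the GC trend of every library removed, a correction that takes out any mean GC trend between the cell lines as well. The luminal prostate markers were present in both cell lines, with 9 of 9 tested. At an adjusted p under 0.05, 0 were higher and 2 lower in RC4-2B, beside 1.08% and 0.903% of all tested genes. The 2 were KLK3 with a log2 fold change of -4.33 (SE 0.24) and TMPRSS2 with -1.08 (SE 0.16). KLK3 passed under all 19 alternative settings and TMPRSS2 under 14 of them, among which were 2 of the 6 fits with a library left out. KLK2 did not pass but did so under 6 of 19 alternative settings, with log2 fold changes of -1.05 to -0.56. The summed level of the 9 markers was 3955 to 4163 CPM in C4-2B and 2856 to 3104 CPM in RC4-2B. The part of this difference in the results below was not tested, and in bulk RNA fewer cells that express a gene and less RNA per cell cannot be told apart. Most markers of other cell types were at or near 0: the basal markers KRT5 and TP63, the neuroendocrine marker INSM1 and the fibroblast markers COL1A2, DCN and LUM had 0 counts in all 6 libraries, and the leukocyte marker PTPRC had at most 3. The basal marker KRT15 had at most 1 count and KRT14 between 4 and 17, and the neuroendocrine marker CHGA had at most 5. SYP, a synaptic vesicle gene and neuroendocrine marker, passed the filter on low counts at about the level of TGFA, with 1.95 ± 0.67 CPM in C4-2B against 1.42 ± 0.74 CPM in RC4-2B (log2 fold change -0.46, SE 0.47, edgeR adjusted p = 0.558). COL1A1, a collagen gene, was the fibroblast marker that was detected, at 23.3 ± 2.02 CPM in C4-2B against 28.7 ± 7.28 CPM in RC4-2B (SD, n = 3).

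Of the 10 genes, 6 were expressed above the filter on low counts (EGFR, ERBB2, ERBB3, EGF, TGFA and HBEGF), and ERBB4, AREG, EREG and NRG1 were at or under 3 counts in every library. None of the 6 passed an adjusted p of 0.05 in edgeR's quasi-likelihood test over 15054 genes, where 1.08% of all tested genes were called higher and 0.903% called lower. With no adjustment, 3 had p under 0.05 and were higher (EGF, ERBB2 and TGFA) and 0 lower, beside 12% and 9.42% of all tested genes. The same 3 had groups that did not overlap, with RC4-2B higher, as did 17% of all tested genes, and 0 of the 6 had RC4-2B lower without overlap, beside 17.1%. DESeq2 called 1 of them higher (EGF, log2 fold change 0.80, adjusted p = 0.0050) and 0 lower, beside 3.28% and 2.64% of the genes it tested.

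**Figure D1:**
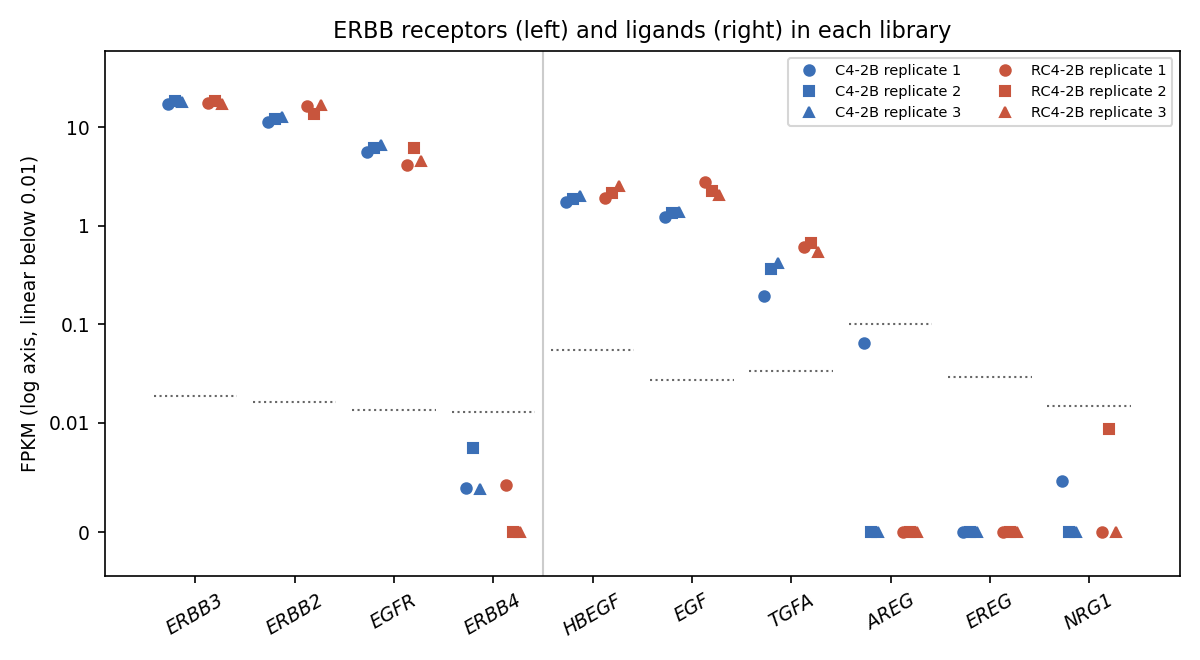
Deposited FPKM of the 10 genes in each of the 6 libraries (log axis, linear below 0.01 FPKM), with receptors on the left and ligands on the right. Blue symbols are C4-2B, red symbols RC4-2B, and the dotted line at each gene is the FPKM that 3 counts correspond to in the library with the highest such value. ERBB4, AREG, EREG and NRG1 lie under their lines in all libraries.

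Compared per gene length, EGFR, ERBB2 and ERBB3 were more abundant than any of the ligands in both cell lines, and ERBB4 was at the floor. The order between genes rests on the deposited gene lengths (12521 bases for EGFR, 10321 for ERBB2 and 9039 for ERBB3). The lengths of the transcripts expressed were not measured. In C4-2B the deposited FPKM levels ranked ERBB3 (17.9 ± 0.61), ERBB2 (12.1 ± 0.74), EGFR (6.14 ± 0.53), HBEGF (1.87 ± 0.15), EGF (1.33 ± 0.079) and TGFA (0.33 ± 0.12; SD, n = 3 each), with no overlap between neighbours in that order. In RC4-2B the order was ERBB3 (17.7 ± 0.66), ERBB2 (15.7 ± 1.76), EGFR (4.96 ± 1.05), EGF (2.37 ± 0.37), HBEGF (2.21 ± 0.31) and TGFA (0.61 ± 0.060). EGF and HBEGF had thus changed places, but their ranges in RC4-2B overlapped (2.06 to 2.78 and 1.93 to 2.53 FPKM), so that their order there is not resolved.

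Among the receptors, ERBB2 had a higher and EGFR a lower mean level in RC4-2B, neither past the test over all genes, and the level of ERBB3 differed by 3.07% between the means fitted for the cell lines. EGFR (ENSG00000146648, chr7:55019021-55211628 in GRCh38, + strand) had 78.3, 86.5 and 92.4 CPM in C4-2B and, in RC4-2B, 57.7, 82.1 and 63.9 CPM. Replicates 1 and 3 of RC4-2B lay under all C4-2B libraries and replicate 2 lay within them. The means were 85.7 ± 7.12 and 67.9 ± 12.7 CPM (SD, n = 3), and the log2 fold change of -0.34 (SE 0.15) did not pass the test (edgeR adjusted p = 0.243). Without RC4-2B replicate 2 the log2 fold change of EGFR was -0.50 (edgeR adjusted p = 0.0040), a fit in which EGFR was the 1 gene of the 10 called lower, beside 6.02% of all genes tested in it. The transcript of EGFR has a GC content of 47.8%, near the median of 48.2% over tested genes, and replicate 2 exceeded the mean of replicates 1 and 3 by 0.44 on the log2 scale before and by 0.37 after removal of the GC trend. With that trend removed, the 3 RC4-2B libraries lay under the 3 C4-2B libraries, while the log2 fold change of -0.40 stayed short of the threshold (edgeR adjusted p = 0.0767).

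ERBB2 (ENSG00000141736, chr17:39687914-39730426, + strand), the ligandless partner receptor, had 130, 141 and 146 CPM in C4-2B and, in RC4-2B, 192, 151 and 192 CPM. All RC4-2B libraries were above all C4-2B libraries, replicate 2 by a small margin. The means were 139 ± 8.10 and 178 ± 23.7 CPM (SD, n = 3), and the log2 fold change was 0.36 (SE 0.13, edgeR unadjusted p = 0.0213, adjusted p = 0.173). ERBB2 has a GC-rich transcript (57.5%), and the log2 level of replicate 2 minus the mean of the other 2 RC4-2B libraries was -0.35, a gap that became 0.085 with the GC trend removed. In that fit ERBB2 had a log2 fold change of 0.54 (SE 0.093, edgeR adjusted p = 0.0074), and it was called with EGF, 2 of the 6 tested genes, beside 4.36% of all genes called higher and 3.25% called lower. Without RC4-2B replicate 2 the log2 fold change was 0.46 (edgeR adjusted p = 0.0017), and again ERBB2 and EGF were the genes called higher, beside 6.50% of all genes.

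ERBB3 (ENSG00000065361, chr12:56076799-56103505, + strand), the receptor that signals to PI3K through its partner, was the most abundant of the 10 by FPKM, that is per length, and had the smallest absolute log2 fold change of the 6 tested. It had 174, 186 and 183 CPM in C4-2B and, in RC4-2B, 177, 178 and 171 CPM, with overlapping groups and means of 181 ± 6.11 and 175 ± 3.65 CPM. Its log2 fold change was -0.045 (SE 0.095, edgeR adjusted p = 0.787), and 90.8% of tested genes had a larger absolute log2 fold change. With the GC trend removed the sign turned (0.013), so no direction is given for ERBB3. ERBB4 (ENSG00000178568, chr2:211375717-212538841, - strand), a receptor for neuregulins, had 1, 2 and 1 counts in C4-2B and 1, 0 and 0 counts in RC4-2B, all at or under the floor, and no fold change is given.

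**Figure D2:**
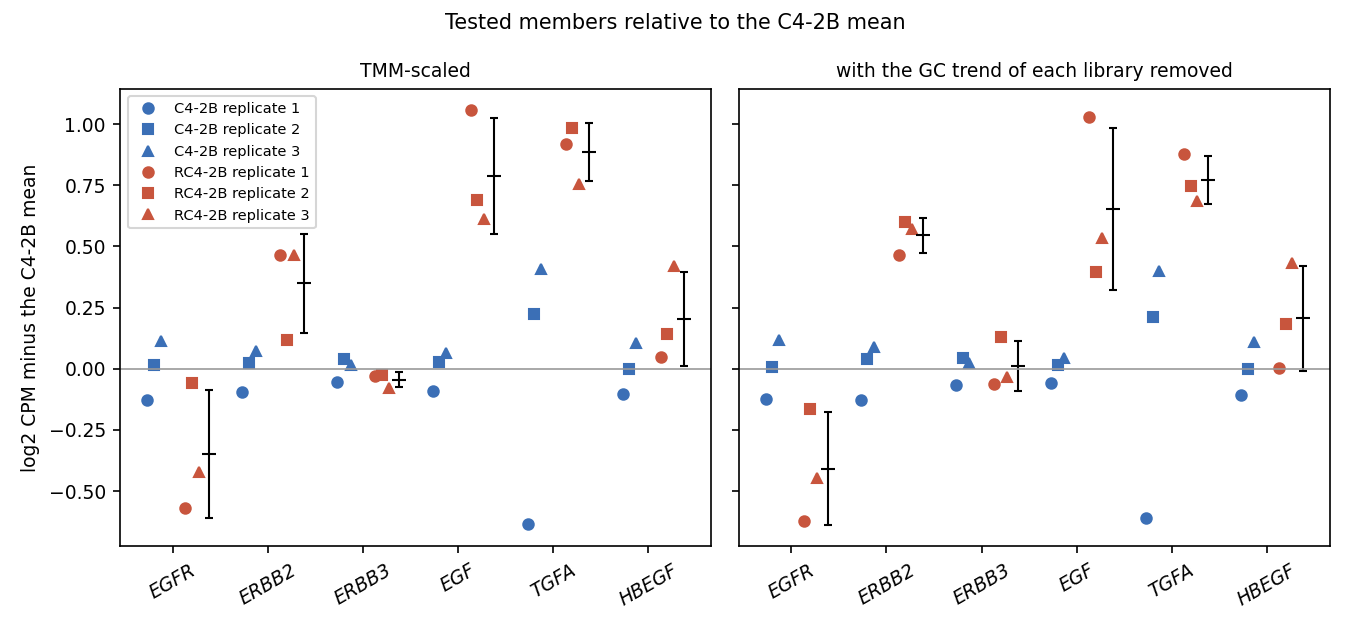
Log2 CPM of the 6 expressed genes in each library minus the mean of the 3 C4-2B libraries, TMM-scaled (left) and with the GC trend of each library removed (right). Blue symbols are C4-2B, red symbols RC4-2B, and black bars are the mean and SD of the 3 RC4-2B libraries. ERBB2, EGF and TGFA do not overlap between the groups in either panel, and EGFR does not overlap in the right panel. From left to right, the square of RC4-2B replicate 2 moves up to the other RC4-2B libraries for ERBB2. For EGF it moves down, away from them.

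The shares of ERBB2, EGFR and ERBB3 in the summed receptor mRNA did not overlap between the cell lines, and that of ERBB4 did. The size of each share rests on the deposited gene lengths, as FPKM values do. ERBB2 made up 33.1%, 33.2% and 33.9% of the summed FPKM of the 4 receptors in C4-2B and, in RC4-2B, 43.4%, 35.8% and 43.6%. EGFR made up 16.4%, 16.8% and 17.7% in C4-2B and, in RC4-2B, 10.8%, 16.1% and 11.97%. ERBB3 made up 50.5%, 49.96% and 48.4% in C4-2B and, in RC4-2B, 45.8%, 48.2% and 44.4%. These 3 shares depend on each other because they sum to 100% with ERBB4 (at most 0.021%, exact permutation p = 0.2). The mean share of ERBB2 was 33.4 ± 0.43% against 40.9 ± 4.48%, that of EGFR 16.96 ± 0.67% against 12.9 ± 2.78%, and that of ERBB3 49.6 ± 1.09% against 46.1 ± 1.89% (SD, n = 3). Each of the 3 gave a p of 0.1 in a two-sided exact permutation test, the smallest that 3 against 3 libraries allow, and 0.133 adjusted over the 4 shares. The ratio of ERBB2 to EGFR was 2.02, 1.98 and 1.91 in C4-2B and, in RC4-2B, 4.04, 2.23 and 3.64. The summed receptor FPKM was 36.1 ± 1.83 in C4-2B and 38.3 ± 0.17 in RC4-2B (exact permutation p = 0.1), without overlap on the deposited scale. In summed CPM, which are TMM-scaled and not divided by gene length, the cell lines overlapped. The lowest RC4-2B library had 410.6 CPM, less than the highest C4-2B library. A higher receptor sum in RC4-2B is therefore not resolved.

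**Figure D3:**
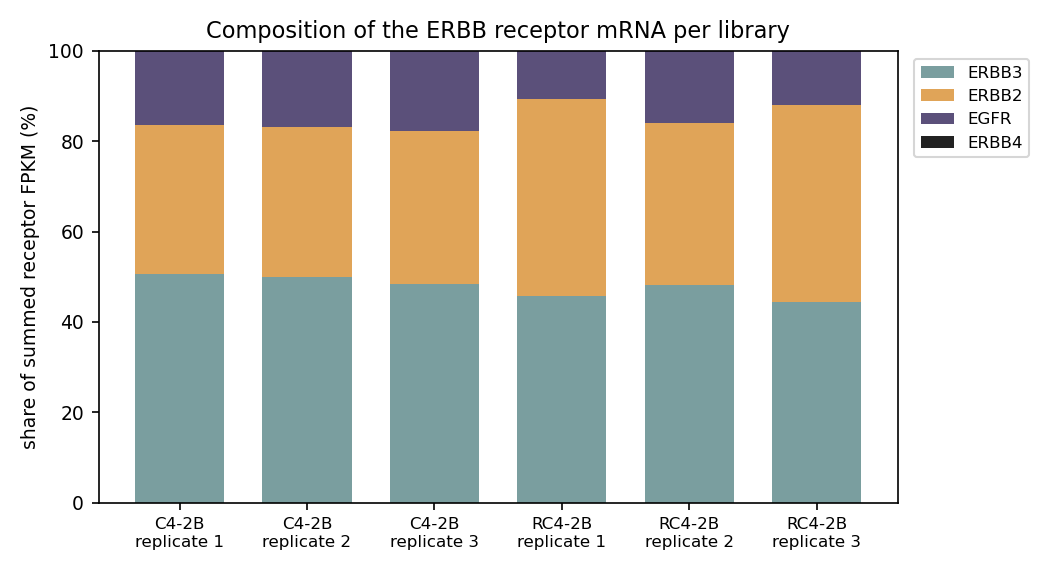
Share of ERBB3, ERBB2, EGFR and ERBB4 in the summed FPKM of the 4 receptors (%, bars from 0 to 100), 1 bar per library. The ERBB2 part spans 33.1% to 33.9% in C4-2B and 35.8% to 43.6% in RC4-2B, and ERBB4 is too small to see.

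ERBB2 lies on chromosome 17, most of whose genes had a log2 fold change above 0 in RC4-2B, so its change was set against that shift. Over 703 tested chromosome 17 genes with an average log2 CPM over 2, ERBB2 left out, the median log2 fold change was 0.17 (interquartile range -0.052 to 0.39), against 0.0063 over all tested genes, and 70.6% of them were above 0. ERBB2, at 0.36, was inside the interquartile range, and 205 of the 703 genes (29.2%) had a larger log2 fold change. In each library, the log2 level of ERBB2 relative to the C4-2B mean was then reduced by the median of the same quantity over the chromosome 17 genes. The remainder was -0.11, 0.026 and 0.082 in C4-2B and, in RC4-2B, 0.21, 0.069 and 0.27. The groups overlapped, because RC4-2B replicate 2 lay under C4-2B replicate 3, and the mean in RC4-2B was 0.18 ± 0.10 (SD, n = 3; two-sided exact permutation p = 0.2). With the GC trend removed, the chromosome 17 median was 0.26, 95 genes (13.5%) lay above ERBB2, and the remainder was -0.13, 0.033 and 0.093 in C4-2B and, in RC4-2B, 0.22, 0.32 and 0.33, without overlap (exact permutation p = 0.1, the smallest possible).

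The immediate neighbours of ERBB2 had a median close to that of the chromosome. The 23 tested genes that start within 0.5 Mb of it had a median log2 fold change of 0.16, 18 were above 0, 6 exceeded ERBB2, and 0 passed the test (edgeR, adjusted p under 0.05), with 6 higher and 1 lower at an unadjusted p under 0.05, beside 12% and 9.42% of all tested genes. With the GC trend removed their median was 0.33 and 4 of them were called higher (RPL19, AC005288.1, MED1 and CDK12), beside 4.36% of all tested genes. MED1, a subunit of the Mediator coactivator, had the highest value, with 102 ± 10.1 CPM in C4-2B against 162 ± 23.5 CPM in RC4-2B (log2 fold change 0.67, SE 0.14, edgeR adjusted p = 0.0525). PPP1R1B, which encodes a protein phosphatase inhibitor, had the lowest value, with 1.36 ± 0.56 and 0.44 ± 0.32 CPM (log2 fold change -1.62, SE 0.57, edgeR adjusted p = 0.168). GRB7, an adaptor that binds ERBB2 and is usually co-amplified with it, starts 50.01 kb from ERBB2 and had 10.6 ± 1.33 CPM in C4-2B against 8.47 ± 3.33 CPM in RC4-2B (log2 fold change -0.33, SE 0.29, edgeR adjusted p = 0.493). With the GC trend removed the log2 fold change of GRB7 was -0.087 (edgeR adjusted p = 0.790), so no direction is given for it. The 170 tested genes within 5 Mb had a median of 0.14, and 46 of them exceeded ERBB2. ERBB2 overlaps 2 expressed genes on the opposite strand, MIEN1 (669 to 957 counts per library, log2 fold change 0.23) and PGAP3 (210 to 377 counts, 0.073), and since the sources do not say whether counting used strand, a part of the reads near its ends cannot be told apart from theirs. With the GC trend removed the log2 fold change was 0.34 for MIEN1 and 0.33 for PGAP3.

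**Figure D4:**
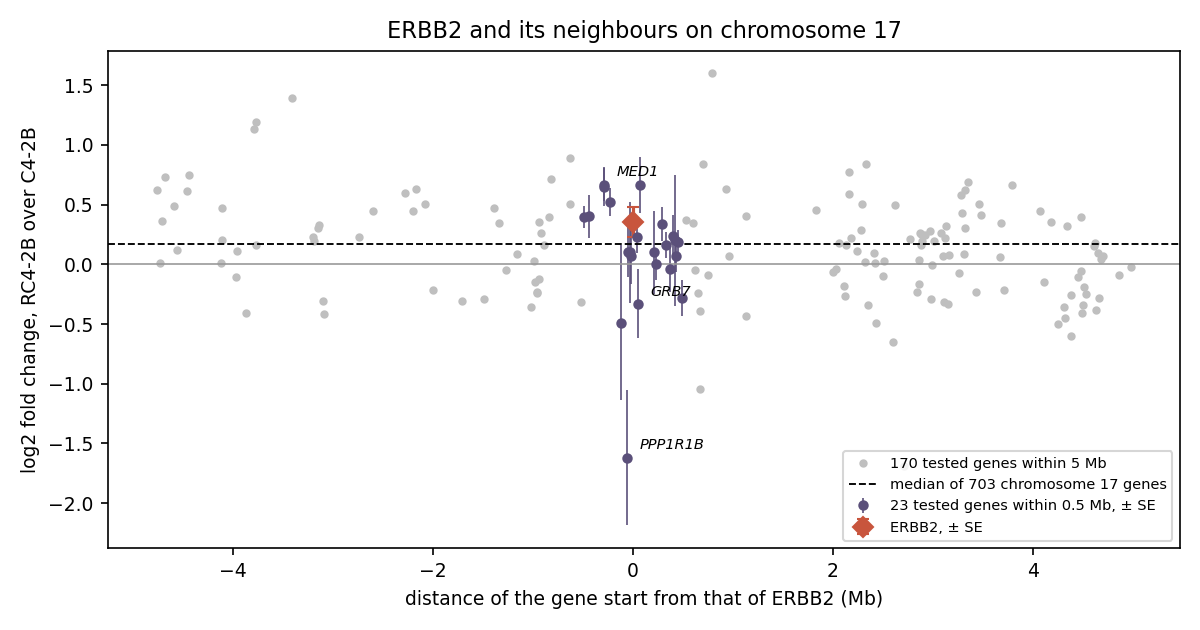
Log2 fold change (RC4-2B over C4-2B) of tested chromosome 17 genes by the distance of their start from that of ERBB2 (Mb). The red diamond is ERBB2, dark points with SE bars are the 23 genes within 0.5 Mb, grey points those up to 5 Mb away, and the dashed line is the median of 703 chromosome 17 genes. ERBB2 at 0.36 lies above the line at 0.17 and within the scatter of its neighbours.

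All 3 expressed ligands among the 10 genes had a higher mean level in RC4-2B, EGF and TGFA without overlap between the groups. EGF (ENSG00000138798, chr4:109912884-110012266, + strand), made as a membrane-bound precursor, had 8.53, 9.29 and 9.51 CPM in C4-2B and, in RC4-2B, 19.1, 14.8 and 14.0 CPM. The lowest RC4-2B library was well above the highest C4-2B library. Its means were 9.11 ± 0.51 and 15.9 ± 2.74 CPM (SD, n = 3), a ratio of 1.75 (log2 fold change 0.81, SE 0.17), and with an unadjusted p of 0.0012 it ranked 341 among the 15054 genes tested by edgeR and came just short of the threshold (adjusted p = 0.0552). The edgeR adjusted p fell to 0.0023 without RC4-2B replicate 2 and to 0.041 with the GC trend removed (log2 fold change 0.68). It lay between 0.20 and 0.28 when 1 of the C4-2B libraries was left out. For EGF, removal of the GC trend moved RC4-2B replicate 2 further from the mean of replicates 1 and 3, from -0.14 to -0.38 (log2). The SD of the 3 RC4-2B libraries rose from 0.24 to 0.33 on that scale. Among the 10 genes EGF had the smallest p.

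TGFA (ENSG00000163235, chr2:70447280-70554193, - strand), a ligand of EGFR that is kept at the membrane until ADAM17 sheds it, was expressed at a much lower level. Its counts were 18, 36 and 41 in C4-2B and, in RC4-2B, 54, 62 and 51, or 1.82 ± 0.66 and 3.30 ± 0.28 CPM. The groups did not overlap, and C4-2B replicate 1 lay well under the other 2. The log2 fold change was 0.86 (SE 0.30, edgeR unadjusted p = 0.0215, adjusted p = 0.173), close to that of EGF but on far fewer counts and with a larger SE. HBEGF (ENSG00000113070, chr5:140332843-140346631, - strand), the heparin-binding ligand of EGFR and ERBB4, had 98, 111 and 119 counts in C4-2B and, in RC4-2B, 104, 122 and 144. The groups overlapped, and the log2 fold change was 0.21 (SE 0.18, edgeR adjusted p = 0.481).

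AREG, EREG and NRG1 were not detectable at this depth. AREG (ENSG00000109321, chr4:74445134-74455009, + strand), an EGFR ligand, had 2 counts in C4-2B replicate 1 and 0 in the other 5 libraries. EREG (ENSG00000124882, chr4:74365143-74388751, + strand), which lies next to AREG in a ligand cluster, had 0 counts in all 6 libraries, which allows up to 0.0294 FPKM. NRG1 (ENSG00000157168, chr8:31639386-32767959, + strand), the neuregulin that binds ERBB3, had 1 count in C4-2B replicate 1 and 2 counts in RC4-2B replicate 2.

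The summed FPKM of the 6 ligands was 3.24, 3.57 and 3.85 in C4-2B and, in RC4-2B, 5.32, 5.09 and 5.14, without overlap (3.55 ± 0.30 and 5.18 ± 0.12, SD, n = 3; exact permutation p = 0.1). Relative to EGFR in the same library, EGF was at 0.223, 0.219 and 0.210 in C4-2B and, in RC4-2B, at 0.676, 0.367 and 0.447, as a ratio of FPKM values. The lowest of these RC4-2B ratios was that of replicate 2, in which EGFR was highest.

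Nearly all other genes of the pathway did not pass the test over all 6 libraries. They were 61 genes in 7 lists, 48 of them tested, and 1 was lower and 0 higher at an edgeR adjusted p under 0.05, with 6 higher and 5 lower at an unadjusted p under 0.05, shares near the 12% and 9.42% of all tested genes. Without RC4-2B replicate 2, 6 were called higher (NRG4, RHBDF2, BRAF, PIK3CA, LRIG3 and SPRY1) and 5 lower (DUSP4, MAP2K2, AKT1, PIK3R1 and LRIG1), beside 6.50% and 6.02% of all genes. With the GC trend removed, 2 were called higher (RHBDF2 and SPRY1) and 2 lower (DUSP4 and LRIG1), beside 4.36% and 3.25%. Their median log2 fold change was 0.10, beside 0.0063 over all tested genes. The 1 called gene was DUSP4, a nuclear phosphatase that ERK signaling induces and that dephosphorylates ERK, and it fell in RC4-2B. It had 26.1, 22.9 and 24.8 CPM in C4-2B and, in RC4-2B, 3.56, 3.99 and 5.99 CPM, a gap far wider than the spread within either group. Its log2 fold change was -2.44 (SE 0.21, edgeR adjusted p = 0.0015), or 5.44-fold lower. Of the other 7 ERK feedback inhibitors, 5 were tested and none passed. SPRY1, an inhibitor of receptor signaling to RAS, had 8.81 ± 0.81 CPM in C4-2B against 14.0 ± 0.52 CPM in RC4-2B and did not pass (log2 fold change 0.67, SE 0.15, edgeR adjusted p = 0.0632).

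Of the 5 ERBB ligands outside the 10 genes, NRG4, a ligand of ERBB4, was the 1 tested. It had 3, 2 and 7 counts in C4-2B and 13, 12 and 20 counts in RC4-2B, low but without overlap (log2 fold change 1.92, SE 0.52, edgeR adjusted p = 0.0993). BTC had at most 4 counts in a library, and EPGN, NRG2 and NRG3 had at most 2. All 4 genes for ligand release were tested and 0 passed, with a median log2 fold change of 0.19. ADAM17, the main sheddase of TGFA and HBEGF, had the smallest p of them (17.4 ± 1.20 against 21.8 ± 2.70 CPM, log2 fold change 0.33, edgeR adjusted p = 0.24).

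Downstream of the receptors, 0 of 18 adaptor and RAS-ERK genes and 0 of 8 tested PI3K-AKT genes passed the test, with medians of 0.078 and 0.10. BRAF, a kinase of the ERK cascade, had the smallest p of the first list, with 35.7 ± 6.49 CPM in C4-2B against 56.1 ± 12.8 CPM in RC4-2B (log2 fold change 0.65, SE 0.20, edgeR adjusted p = 0.133). AKT1, the kinase downstream of PI3K, had the smallest p of the second, with 249.7 ± 0.36 and 186 ± 20.4 CPM (log2 fold change -0.43, SE 0.11, edgeR adjusted p = 0.0916). Over the 19 alternative settings the log2 fold change of AKT1 ran from -0.48 to -0.040, and it was called in 2 of them. None of the 7 receptor-level inhibitors passed, with a median of 0.16. LRIG1, which promotes the degradation of ERBB receptors, came nearest, with 48.5 ± 2.98 and 32.1 ± 4.36 CPM (log2 fold change -0.59, SE 0.14, edgeR adjusted p = 0.0669). Of the 9 ERK-responsive transcripts, 4 were tested and 0 passed, and IER2, an immediate-early gene, had the smallest p (log2 fold change -0.52, SE 0.25, edgeR adjusted p = 0.257).

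**Figure D5:**
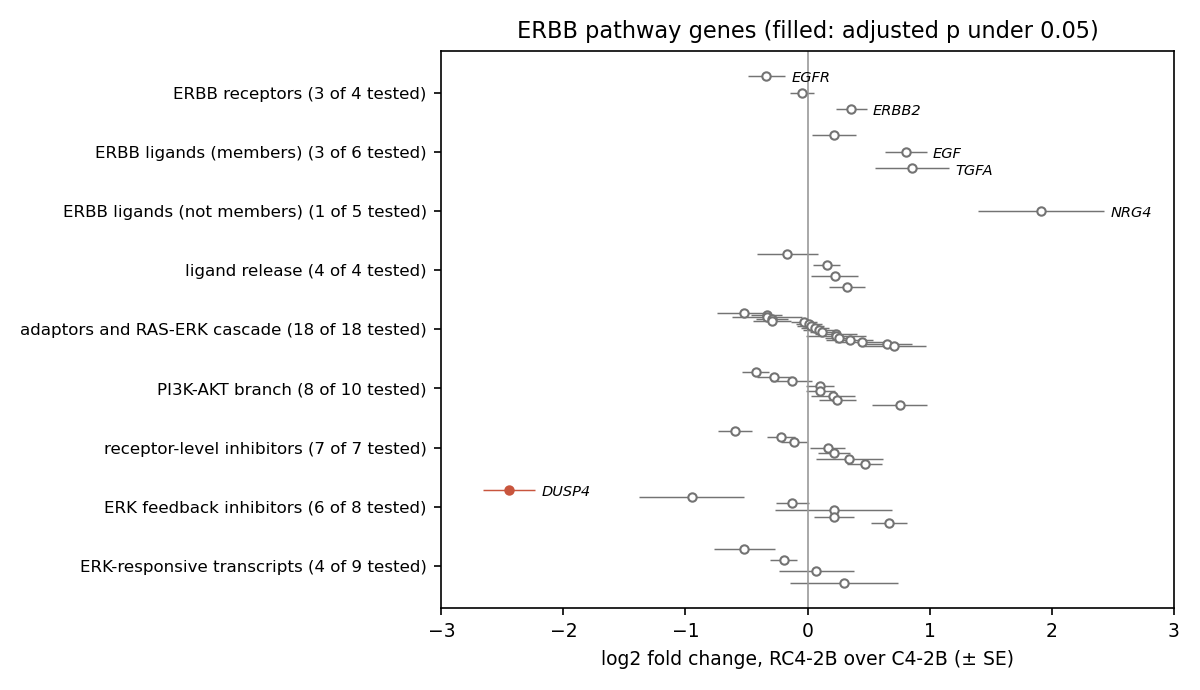
Log2 fold change (RC4-2B over C4-2B, with SE) of each tested gene of the ERBB receptors, their ligands and the 7 pathway lists. The filled red point is DUSP4 at -2.44, the 1 gene with an adjusted p under 0.05, and open grey points are all others. The tested ligands all lie above 0, and the other lists scatter on both sides of it. NRG4 at 1.92 has the widest error bar of the labelled genes.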

How the data were processed

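RNAseq was analysed for 3 C4-2B and 3 RC4-2B libraries, grouped by their titles, with 0 sample columns left unused. Per the labels and the methods, reads were aligned by STAR to GRCh38, and the authors deposited unnormalized counts per gene beside FPKM values. The deposited FPKM equal the counts divided by gene length and by 1 constant per library. The counting program, its strand setting and the gene annotation used are not given in the sources used here, so overlapping and antisense genes are uncertain.

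Counts were tested in R 4.3.3 with edgeR 4.0.16 (TMM, filterByExpr with a minimum of 10 counts, glmQLFit, glmQLFTest, two-sided, Benjamini-Hochberg over 15054 genes, threshold 0.05). The alternatives were DESeq2 1.42.0, which is the tool the methods name, RLE and upper-quartile scaling, other filters, a replicate block, each library left out, a robust prior, limma 3.58.1 on log2(FPKM + 1) and log2(FPKM + 0.1), and a GC offset (a lowess curve per library, span 0.2, over the GC content of each gene's longest GENCODE transcript, known for 99.6% of tested genes). CPM are TMM-scaled. Log2 values per library used a prior count of 2. The main edgeR fit was run on simulated counts. The alternative settings, the shares, the chromosome 17 remainder and the permutation tests were not. Library pairs within a cell line differed by more than sampling noise (chi-square per gene of 3.37 to 65.0).

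The 10 genes, the lists and the tests were chosen with earlier results of these data known. Named genes are the 10, the list genes past the threshold, otherwise the one with the smallest p per list, and the neighbours of ERBB2 with the highest and lowest log2 fold change. No profile-likeness search was run, because none of the 10 passed the threshold. GRB7, SPRY1, MIEN1, PGAP3, the marker genes and those named under other settings were named after their values were seen. RefSeq promoter windows matched 8 of the 10 genes. Of the marker genes, 1 is not reported here.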

Additional observations from a re-analysis of the deposited data

How the results depend on the processing

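None of the 10 genes passed the threshold in the main test, and 0 did under RLE or upper-quartile scaling, a mean of at least 10 counts, the robust prior or limma. The number called higher was 1 with DESeq2 and 1 with no filter (EGF each time), 2 with the GC offset (ERBB2 and EGF), 2 with the GC offset and without RC4-2B replicate 2 (the same genes), and 1 with the GC offset and the replicate block (ERBB2, log2 fold change 0.54, edgeR adjusted p = 0.0096). The number called lower, EGFR in each case, was 1 with the GC offset and without RC4-2B replicate 2 and 1 with the GC offset and the replicate block. Leaving out 1 library gave 0 to 2 called higher and 0 to 1 called lower, all from the fit without RC4-2B replicate 2. The log2 fold changes of EGFR, ERBB2, EGF, TGFA and HBEGF kept their sign in all alternatives that gave a value. Their ranges were -0.53 to -0.23, 0.30 to 0.54, 0.52 to 0.89, 0.28 to 1.07 and 0.093 to 0.29. The lower ends for EGF and TGFA came from limma on log2(FPKM + 1), a scale on which the added 1 shrinks differences at low FPKM. ERBB3 reversed to 0.013 with the GC offset and to 0.011 with the GC offset and the replicate block. The cause of the other differences between settings was not tested.

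A pairing of the libraries by replicate number was not established. The deviations of same-numbered libraries had correlations of 0.31, 0.18 and -0.073. Libraries numbered 1 correlated best with each other, as did those numbered 2, whereas C4-2B replicate 3 and RC4-2B replicate 3 did not. With the replicate number as a block, 55 genes were called higher and 74 lower, against 162 and 136 without it, 0 of the 10 genes were called in either direction, and DUSP4 was the 1 pathway gene called lower. Over all genes, DESeq2 called 500 higher and 402 lower, no filter 604 and 646, the GC offset 656 and 490, the GC offset with the block 643 and 564, and the GC offset without RC4-2B replicate 2 gave 1037 and 1013. The genes tested numbered 15221 with DESeq2, 29109 with no filter and 15054 with the GC offset, alone or with the block. They numbered 15378 with the GC offset without RC4-2B replicate 2. Limma gave 46 and 58 with log2(FPKM + 1), 39 and 47 with log2(FPKM + 0.1), and 13 and 23 without its filter. It tested 11987 genes with the filter and 29109 without it. Without C4-2B replicate 1, 2 or 3 the counts were 13 and 31, 19 and 38, or 20 and 36, and without RC4-2B replicate 1, 2 or 3 they were 252 and 222, 1000 and 925, or 29 and 49. The fits with a library left out tested 15372 to 15519 genes.

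DUSP4 was called in all alternatives (log2 fold change -2.70 to -1.37, with limma on log2(FPKM + 1) included). Of the lists, ERBB ligands outside the 10 genes had 1 called higher with no filter and with the GC offset without RC4-2B replicate 2 (NRG4), and ligand release had 1 higher with the GC offset, alone or combined (RHBDF2). The RAS-ERK list had 1 higher with no filter, with the GC offset and block and with the GC offset without that library (BRAF), and 1 lower with no filter (MAP2K2). The PI3K-AKT list had 1 higher with DESeq2, no filter, the GC offset and block and the GC offset without that library (PIK3CA), and 1 lower with DESeq2 (AKT1) and with the GC offset without that library (PIK3R1). Receptor-level inhibitors had 1 lower with DESeq2, no filter, the GC offset and the GC offset and block (LRIG1), and 2 with the GC offset without that library (LRIG1 and ERRFI1). ERK feedback inhibitors had 1 higher with DESeq2, the GC offset and the GC offset without that library (SPRY1). Leaving out 1 library gave 0 to 1 higher in each of these 6 lists, 0 to 1 lower in the RAS-ERK list and the receptor-level inhibitors, and 0 to 2 lower in the PI3K-AKT list, all changes from RC4-2B replicate 2. Neighbours of ERBB2 called higher were 4 with DESeq2, 1 with upper-quartile scaling, 4 with no filter, 4 with the GC offset, 8 with the GC offset without RC4-2B replicate 2, 3 with the GC offset and block, and 0 to 5 on leaving out 1 library (3 without RC4-2B replicate 1 and 5 without replicate 2), and 1 was lower with no filter (PPP1R1B). MED1 was called in 8 of 19 alternatives.

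The difference of ERBB2 from the chromosome 17 shift moved from 0.18 to 0.29 with the GC offset and lay between 0.13 and 0.24 in the other 12 alternatives. The receptor shares kept their direction in all 7 alternatives. With 3 libraries per cell line, of which 1 stands apart, the calls of EGFR, ERBB2 and EGF thus depend on the settings named here, and genes at 1 to 3 counts cannot be compared.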
